A study of Rattus norvegicus with 58 samples.

Results

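Glutathione S-transferases join the tripeptide glutathione to reactive small molecules, and the conjugates are then exported and trimmed to mercapturates. The cytosolic enzymes fall into classes named by Greek letters (alpha, mu, pi, theta, omega), the kappa class sits in mitochondria and peroxisomes, and the microsomal members of the MAPEG family are embedded in membranes. Liver and kidney are organs rich in these enzymes, and several of their genes are textbook targets of the receptors CAR and PXR and of the oxidative stress factor Nrf2.

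The transcripts of 10 such genes (Gstp1, Gstm1, Gstm2, Gstm3, Gsta4, Gstt1, Gstt2, Gsto1, Gstk1 and Mgst1) are described in male Harlan Sprague-Dawley rats. Members were the probe sets annotated to exactly 1 of these symbols, which gave 11 of the 31099 probe sets and 10 of the 14217 genes named by single symbols. Gstt2 had 2 probe sets (1368409_at and 1396468_at) and the others 1 each. 4-Methylcyclohexanemethanol (MCHM), a cyclic alcohol used in coal cleaning, was given by gavage for 5 days at 0.1, 1, 10, 100, 300 or 500 mg/kg, and control rats received 0 mg/kg. Liver and kidney were each measured on 29 Affymetrix Rat Genome 230 2.0 arrays, 5 for the controls and 4 for every dose. All groups shared strain, sex, route and duration, and no age is given in the labels. Replicates are biological by their labels, which do not say whether a liver and a kidney came from the same rat, and p-values measure the spread between these arrays.

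Values are log2 RMA values, where RMA combines the probes of a set into a single number per array, and a difference of 1 is a doubling. A gene is called changed when the Benjamini-Hochberg adjusted p of limma, taken over all genes tested in that comparison, is under 0.05. The median of an array was 5.26 to 5.31 for livers and 5.33 to 5.37 for kidneys. The organs matched their labels: the mean of 6 hepatocyte markers was 12.95 to 13.11 in control livers, and that of 6 kidney tubule markers was 11.32 to 11.57 in control kidneys. On 2 kidney arrays, 300 mg/kg replicate 3 and 500 mg/kg replicate 3, the mean of 6 adipose markers was 11.11 and 10.06, against at most 6.04 on every other kidney array. Kidney control replicate 2 had a hepatocyte marker mean of 6.62, against at most 4.81 on the other kidney arrays. Kidney differences at 500 mg/kg and kidney correlations are therefore also given without the adipose-rich arrays.

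Of the 10 genes, 8 had an entry in the RefSeq promoter table (GRCr8), and Gstt1 and Gstt2 did not. The 250 bases before the start were searched on both strands for TGACNNNGC, the core of the antioxidant response element bound by Nrf2. They were also searched for TGANTCA, a loose form of the AP-1 site in which N is any base. The AP-1 consensus has C or G at that place. The first motif was found in 1 of 8 windows and in 10.1% of 33469 promoters of the same length. The other was found in 2 of 8 windows and in 6.34% of those promoters. Windows are shown, for Gstk1, the member that passed the test in liver, for Gstp1, the member with the widest dose difference in kidney, and for Mgst1, which holds the remaining motif match. Motif letters are in capitals, and the Gstk1 window holds none. They are Gstk1 at chr4:72085364-72085613 on the plus strand, Gstp1 at chr1:210769706-210769955 on the minus strand and Mgst1 at chr4:172760680-172760929 on the plus strand, each written 5′ to 3′ along its gene.
Gstk1: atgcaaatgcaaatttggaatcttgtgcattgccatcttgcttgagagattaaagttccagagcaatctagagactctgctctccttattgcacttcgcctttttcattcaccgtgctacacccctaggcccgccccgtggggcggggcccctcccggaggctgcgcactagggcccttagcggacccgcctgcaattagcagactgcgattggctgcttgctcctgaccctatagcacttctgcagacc
Gstp1: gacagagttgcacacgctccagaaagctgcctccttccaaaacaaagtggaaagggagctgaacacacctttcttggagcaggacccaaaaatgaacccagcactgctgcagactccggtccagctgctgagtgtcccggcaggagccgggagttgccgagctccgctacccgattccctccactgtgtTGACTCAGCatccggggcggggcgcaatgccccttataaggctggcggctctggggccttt
Mgst1: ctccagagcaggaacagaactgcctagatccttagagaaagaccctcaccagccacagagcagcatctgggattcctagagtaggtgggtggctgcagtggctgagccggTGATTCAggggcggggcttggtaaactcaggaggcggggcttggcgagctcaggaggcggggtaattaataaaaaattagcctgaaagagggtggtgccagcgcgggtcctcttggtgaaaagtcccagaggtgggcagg
In Gstp1 the capitals TGACTCAGC run from position -61 to -53, and the AP-1 letters TGACTCA are their first part, -61 to -55. In Mgst1 the letters TGATTCA run from -140 to -134, and with T in the middle they match only the loose form. These matches are descriptions of letters, and binding was not measured.

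Levels in liver and kidney were first compared in control rats. There 9 of 10 members were called between the organs, 6 higher in liver and 3 lower, where 77.2% of all 11801 genes tested were called (35.7% higher and 41.5% lower). The arrays of the organs did not overlap for 8 of 10 members, against 64.6% of all genes. The sources used here do not say whether RMA was run on both organs at once, and levels are compared only within a gene.

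The mu class genes Gstm1 and Gstm2, which lie with Gstm3 in a single cluster on the same chromosome, read higher in liver than in kidney. Gstm1 read 12.35, 12.75, 12.56, 12.63 and 12.51 in control livers and 8.40, 7.39, 7.83, 8.43 and 8.14 in control kidneys. It was thus 23.0-fold higher in liver, a log2 difference of 4.52 ± 0.14 (SE; limma adjusted p = 2.78e-33). Gstm2 was 14.5-fold higher in liver, with a log2 difference of 3.86 ± 0.14 (SE; limma adjusted p = 5.33e-30). Gstm3 was low in both organs, at 5.58 ± 0.46 (SD, n = 5) in liver and 4.69 ± 0.27 (SD, n = 5) in kidney. Its organs overlapped although the log2 difference of 0.90 was called (limma adjusted p = 4.04e-07). The kidney values of Gstm3 straddle the 40th percentile of the arrays, 4.62 to 4.70, that the filter on low values uses. Mu class genes are alike in sequence, and whether these probe sets also bind a neighbour's transcript was not tested.

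Gstp1, the pi class enzyme and a classic marker of preneoplastic foci in rat liver, had the opposite pattern. It read 8.59, 8.64, 8.67, 8.69 and 8.72 in control livers and 12.10, 12.39, 12.80, 12.51 and 12.71 in control kidneys. It was 14.3-fold lower in liver (log2 difference -3.84 ± 0.14, SE; limma adjusted p = 1.53e-29), and the lowest kidney lay far above the highest liver. Gsta4, the alpha class enzyme that conjugates the lipid peroxidation product 4-hydroxynonenal, was 1.48-fold lower in liver. Gsto1, an omega class enzyme with thioltransferase and dehydroascorbate reductase activity, was 1.37-fold lower in liver.

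The membrane enzyme Mgst1 was 4.42-fold higher in liver, at 13.82 ± 0.02 (SD, n = 5) against 11.68 ± 0.15 (SD, n = 5). Its liver values sit close to the top of the table, whose highest value is 14.85. Gstk1, the mitochondrial and peroxisomal kappa enzyme, was 3.06-fold higher in liver, with a log2 difference of 1.62 ± 0.06 (SE; limma adjusted p = 1.75e-29). The theta genes, which share a cluster on a chromosome, differed from each other. Gstt2 was 1.55-fold higher in liver by its brighter probe set and 1.33-fold by the other. Gstt1 was the member that missed the threshold, at 9.35 ± 0.08 in liver and 9.47 ± 0.07 in kidney (SD, n = 5 each; limma adjusted p = 0.132).

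**Figure D1:**
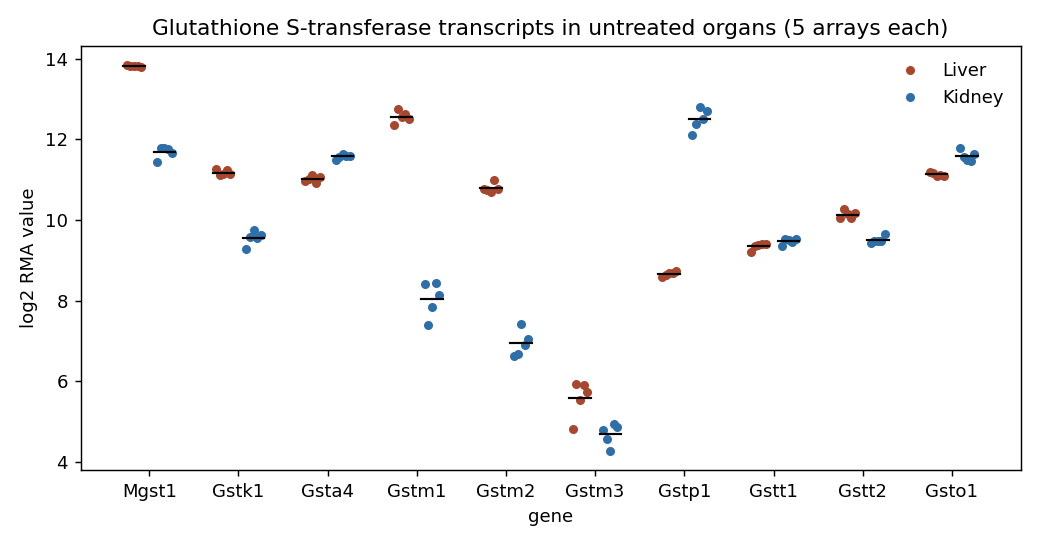
Log2 RMA values (vertical axis) of the 10 genes on the 5 control arrays of liver and the 5 of kidney, each point an array and each line a group mean. Gstm1, Gstm2, Mgst1 and Gstk1 lie higher in liver and Gstp1 higher in kidney, while the organs overlap for Gstm3 and Gstt1.

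With MCHM, 1 of the 10 genes rose in liver and 0 fell. Gstk1 rose at 500 mg/kg by 1.27-fold, and 0.958% of all 11275 liver genes were called at that dose (0.488% called higher). Its control livers read 11.26, 11.12, 11.13, 11.23 and 11.13. At 300 mg/kg it read 11.31, 11.36, 11.38 and 11.29, and at 500 mg/kg it read 11.39, 11.74, 11.44 and 11.49. Every array of either dose lay above the highest control. The log2 difference at 500 mg/kg was 0.34 ± 0.06 (SE; 95% interval 0.21 to 0.47; limma adjusted p = 0.00549). The mean of the 6 hepatocyte markers was 12.95 to 13.11 in control livers, 13.14 to 13.21 at 0.1 mg/kg and 13.10 to 13.30 at 500 mg/kg. It was 13.03 to 13.27 at 1, 13.04 to 13.37 at 10, 13.08 to 13.32 at 100 and 13.03 to 13.21 at 300 mg/kg. Among these markers Tat ran from 8.38 to 10.64 over all livers, and the others over narrower ranges. The mean of the 4 macrophage markers on the array was 8.41 to 8.57 in controls, 8.19 to 8.41 at 300 mg/kg and 8.05 to 8.53 at 500 mg/kg. All 4 livers at 300 mg/kg and 3 of 4 at 500 mg/kg were below every control in the macrophage markers, the highest at 300 mg/kg by less than the printed decimals show. The part of either in the Gstk1 result was not tested. In bulk tissue fewer cells of a type and less RNA per cell cannot be told apart.

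Across the doses, Gstk1 group means in liver ran 11.17 at 0 mg/kg, 11.08 at 0.1, 11.20 at 1, 11.19 at 10, 11.24 at 100, 11.34 at 300 and 11.51 at 500 mg/kg. Each dosed group up to 100 mg/kg overlapped the controls and was not called, although at 0.1 mg/kg 0 of 4 arrays lay above the control mean. The dose trend, fitted over the rank of the dose from 0 to 6, called Gstk1 at 0.05 ± 0.01 log2 units a step (SE; limma adjusted p = 0.00366), where 1.84% of liver genes were called (0.674% higher). At 300 mg/kg its log2 difference of 0.16 did not pass (limma adjusted p = 0.518). A fit restricted to the control and 500 mg/kg arrays gave the same 0.34 with an adjusted p of 0.0579, so the call ends there.

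At 500 mg/kg, 3 of 10 members had livers that did not overlap the controls (Gstk1, Gstt1 and Mgst1, all above), against 5.59% of all genes (2.7% above). An unadjusted p under 0.05 was reached by 4 of 10, against 13.9% of all genes. The median difference of the members was 0.11 and that of all genes 0.01.

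Mgst1 read 13.83, 13.82, 13.82, 13.82 and 13.79 in control livers, and 13.87, 13.91, 13.90 and 13.94 at 500 mg/kg. The dosed livers all lay above the controls, by a log2 difference of 0.09 ± 0.02 (SE), a 1.06-fold difference that missed the threshold (limma adjusted p = 0.0633). Its livers at 300 mg/kg, at 13.84, 13.84, 13.87 and 13.90, also lay above every control. This small difference passed under 4 of the alternative settings given in the closing section.

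Gstt1, a theta class enzyme known for conjugating small halogenated compounds, read 9.21, 9.34, 9.38, 9.40 and 9.41 in control livers. It read 9.50, 9.57, 9.55 and 9.49 at 300 mg/kg and 9.47, 9.67, 9.66 and 9.58 at 500 mg/kg. All 8 of these arrays lay above the controls, with a log2 difference of 0.25 ± 0.08 (SE) at 500 mg/kg that was not called (limma adjusted p = 0.138). Gsto1 was 0.15 higher at 500 mg/kg (limma adjusted p = 0.132), with 4 of 4 arrays above the control mean and an overlap of the groups.

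The mu genes differed in sign in liver at 500 mg/kg, where each of their 95% intervals included 0, and all were above 0 at 300 mg/kg. Gstm2 had log2 differences of 0.28 at 300 mg/kg and 0.22 at 500 mg/kg (limma adjusted p = 0.546 and 0.394). Gstm1 was at 0.03 and Gstm3 at 0.15 at 300 mg/kg, and they were at -0.07 and -0.13 at 500 mg/kg. Gsta4 was at 0.13 (limma adjusted p = 0.39), Gstt2 at -0.04 and Gstp1 at -0.13 (limma adjusted p = 0.444). At 300 mg/kg 0 of 10 members were called, against 0.0266% of all genes, and 3 of 10 did not overlap the controls, against 3% of all genes (1.39% above). From 0.1 to 100 mg/kg 0 members and 0 genes were called in liver. At those 4 doses the members' differences lay between -0.093 and 0.17. Gstp1 at 0.1 mg/kg, at 0.13, was the 1 of 10 whose livers lay above every control, where 1.48% of all genes had groups that did not overlap.

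**Figure D2:**
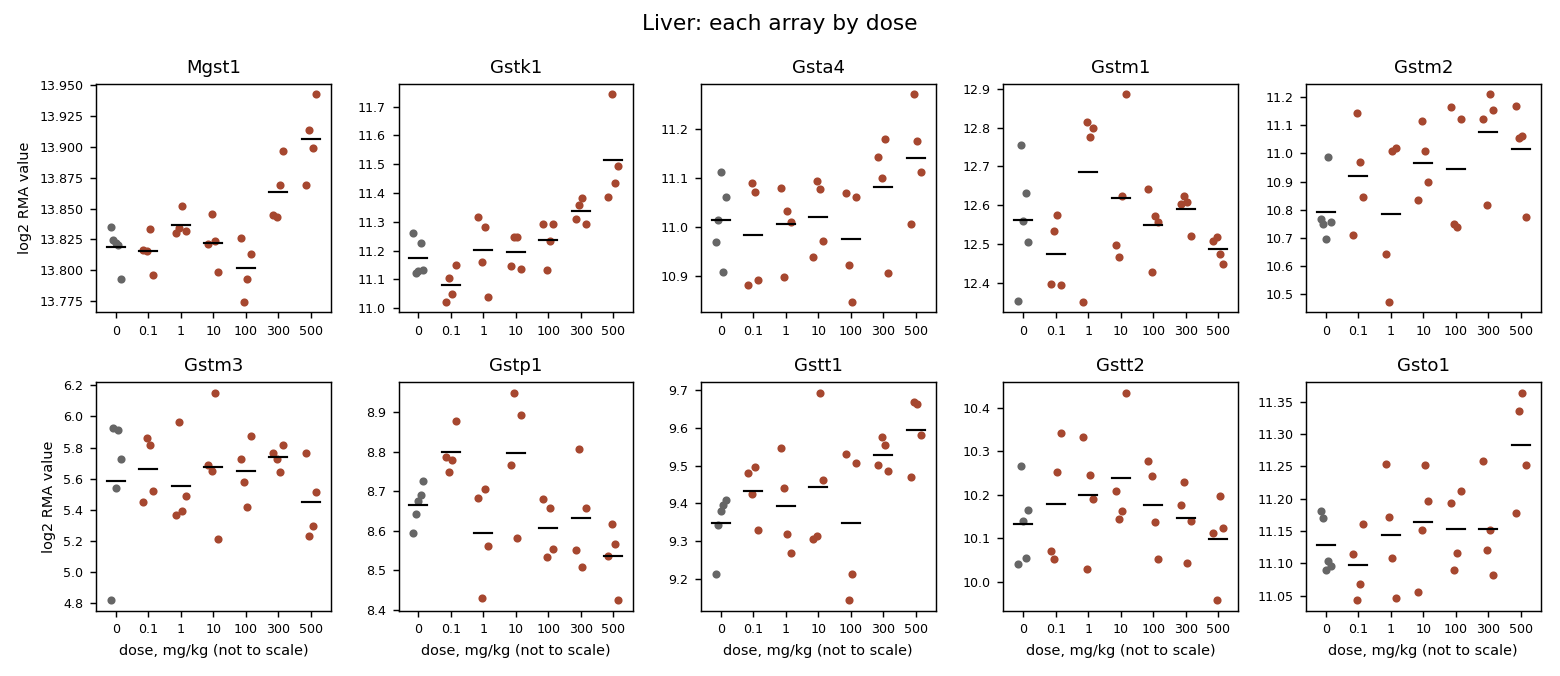
Log2 RMA values (vertical axes, scaled per gene) of each gene on every liver array by dose in mg/kg (horizontal axis, evenly spaced), with controls in grey and lines at group means. Gstk1 climbs from a mean of 11.24 at 100 mg/kg to 11.51 at 500 mg/kg, and Mgst1 and Gstt1 sit above their controls at 300 and 500 mg/kg.

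In kidney 0 of the 10 genes were called at any dose or in the dose trend. Over all 11204 genes, 0.0268% were called at 300 mg/kg, 0.0268% at 500 mg/kg and 0.152% in the trend. At 500 mg/kg 3 of 10 members had an unadjusted p under 0.05, against 9.58% of all genes, and all 3 were lower (Gstp1, Gstm1 and Gstt2), against 3.26%. The groups did not overlap for 1 of 10, against 3.19% of all genes. That member was Gstt2, and these counts use its brighter probe set. Its dimmer probe set was at 0.04 and overlapped the controls.

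Gstp1 showed the widest difference of any member in kidney. Against the control values given above, it read 12.16, 12.01, 11.63 and 11.95 at 300 mg/kg and 11.52, 12.22, 10.72 and 12.04 at 500 mg/kg. All 8 arrays lay below the control mean of 12.50, but the groups overlapped, since control replicate 1 read 12.10. The log2 difference at 500 mg/kg was -0.88 ± 0.20 (SE; 95% interval -1.28 to -0.47), or 1.84-fold lower, with a limma adjusted p of 0.0791. At 300 mg/kg it was -0.56 (limma adjusted p = 0.776) and in the trend -0.11 a step (limma adjusted p = 0.0835).

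Lower doses did not form a graded series for Gstp1. Kidneys given 0.1 mg/kg read 12.09, 11.91, 12.10 and 12.08, all below every control, where 1.87% of all genes had groups that did not overlap at that dose. The log2 differences were -0.46 at 0.1, -0.21 at 1, -0.24 at 10 and -0.46 at 100 mg/kg, with limma adjusted p between 0.584 and 0.977.

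The lowest Gstp1 value, 10.72, was on the adipose-rich 500 mg/kg array, which also had the lowest level of Umod, 12.37. Without the 2 adipose-rich arrays the difference at 500 mg/kg was -0.57 (limma adjusted p = 0.339). Without 500 mg/kg replicate 3 alone it was -0.57 with an adjusted p of 0.381. Leaving out control replicate 1 gave -0.98 (adjusted p = 0.0396) and leaving out 500 mg/kg replicate 2 gave -1.08 (adjusted p = 0.0178), both past the threshold. Whether the call is made thus turned on single arrays.

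Gstp1 moved with Umod from kidney to kidney. Umod encodes uromodulin, made by the thick ascending limb of the nephron. With the group means taken away, the correlation was r = 0.90 over 29 arrays and 0.84 over the 27 that were not adipose-rich. The points share an array, its RNA and its normalization. Aqp2, the water channel of the collecting duct, correlated with Gstp1 at 0.55 (0.54 over the 27). Slc12a3, the salt cotransporter of the distal convoluted tubule, did so at -0.53 (-0.68 over the 27), and Slc34a1, the phosphate transporter of the proximal tubule, at -0.41 (-0.43 over the 27). Umod itself differed by -0.33 at 500 mg/kg (limma adjusted p = 0.618), and by -0.083 without the adipose-rich arrays. Slc12a3 differed by 0.35 (unadjusted p = 0.0451, limma adjusted p = 0.503), opposite in sign to Gstp1. Without the adipose-rich arrays Slc12a3 differed by 0.27 (unadjusted p = 0.139, limma adjusted p = 0.824). With the Umod level of the array in the model, a fit chosen after the data were seen, Gstp1 differed by -0.58 at 500 mg/kg and passed (limma adjusted p = 0.00456). Umod was among the 3 genes most like Gstp1 on these same arrays, and the fit kept the adipose-rich arrays. This pass therefore decides nothing about nephron segment makeup, whose part in the Gstp1 values was not tested.

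**Figure D3:**
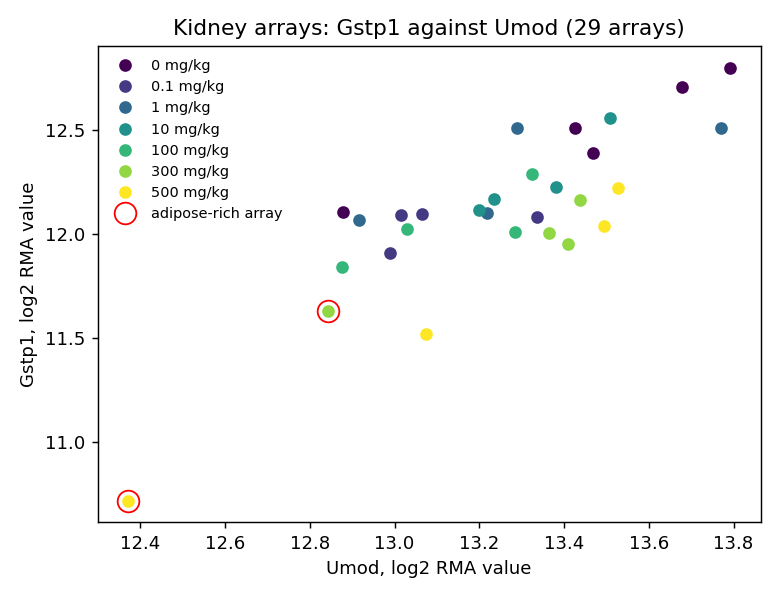
Gstp1 (vertical axis) against Umod (horizontal axis), both as log2 RMA values on the 29 kidney arrays, coloured by dose, with the 2 adipose-rich arrays ringed in red. The points run along a diagonal, and the ringed 500 mg/kg array at 12.37 for Umod and 10.72 for Gstp1 is the lowest on both axes.

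Gstm1 was also lower in dosed kidneys without a call. It read 7.90, 7.42, 7.87 and 7.53 at 300 mg/kg and 7.25, 7.49, 7.59 and 7.75 at 500 mg/kg. All 8 arrays lay below the control mean of 8.04, and both doses overlapped the controls. At 500 mg/kg they overlapped only with control replicate 2, which read 7.39. That array had raised hepatocyte markers, while Gstm1 was 23.0-fold higher in control livers than in control kidneys. What set its low Gstm1 value was not tested. The log2 difference at 500 mg/kg was -0.52 ± 0.18 (SE; limma adjusted p = 0.322) and was -0.54 without the adipose-rich arrays. With single arrays left out it ran from -0.68, without control replicate 2, to -0.42 (limma adjusted p 0.181 to 0.631 over these fits). Gstm2 and Gstm3 differed by 0.09 and -0.15 at that dose (limma adjusted p = 0.904 and 0.682), and by 0.13 and -0.15 without those arrays.

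Gstt2 gave different answers from its 2 probe sets. The brighter one read 9.42, 9.49, 9.47, 9.47 and 9.66 in control kidneys and 9.30, 9.30, 9.05 and 9.22 at 500 mg/kg. All 4 dosed arrays lay below every control, with a log2 difference of -0.29 ± 0.07 (SE; limma adjusted p = 0.0995), or -0.23 without the adipose-rich arrays (limma adjusted p = 0.45). The dimmer probe set differed by 0.04 at 500 mg/kg, and at 300 mg/kg it was at 0.21 while the brighter one was at -0.11. Gstt1 in kidney stood at 0.15 at 1 mg/kg, 0.16 at 10 mg/kg and -0.08 at 500 mg/kg (-0.032 without the adipose-rich arrays), with limma adjusted p of at least 0.533.

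Gstk1, which rose in liver, differed by 0.08 in kidney at 500 mg/kg (95% interval -0.06 to 0.22; limma adjusted p = 0.742), or 0.12 without the adipose-rich arrays. Gsta4, Gsto1 and Mgst1 differed by -0.01, -0.06 and -0.10 there, and by 0.027, -0.091 and -0.12 without the adipose-rich arrays. Mgst1 read 12.20 on the adipose-rich 300 mg/kg array and 11.67, 11.63 and 11.62 on the others of that dose. Its difference at 300 mg/kg was 0.10 with that array and -0.04 without the adipose-rich arrays, so the sign rests on it.

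**Figure D4:**
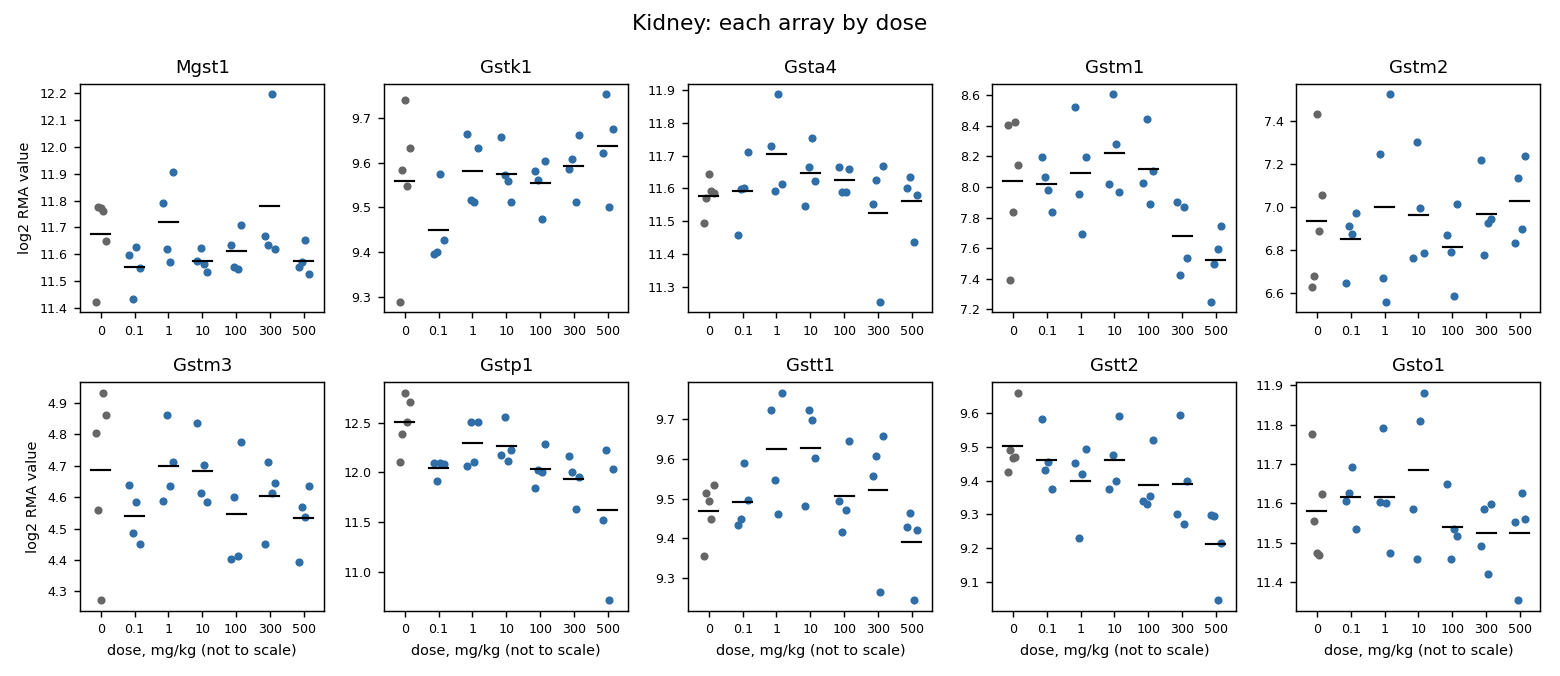
Log2 RMA values (vertical axes, scaled per gene) of each gene on every kidney array by dose in mg/kg (horizontal axis, evenly spaced), with controls in grey and lines at group means. Gstp1 and Gstm1 lie below their control means of 12.50 and 8.04 on all arrays at 300 and 500 mg/kg, and the isolated Mgst1 point at 300 mg/kg is the adipose-rich array at 12.20.

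The liver effect minus the kidney effect of a dose was tested directly in a single fit of all 58 arrays. At 500 mg/kg 0 of 10 members were called, against 0.122% of 10673 genes. All 10 differences were above 0, as were 47% of all genes, and 6 of 10 had an unadjusted p under 0.05, against 8.54%. Both counts use the brighter Gstt2 probe set, at 0.25 with an unadjusted limma p of 0.019. The dimmer Gstt2 probe set was at -0.13 in a fit of all probe sets (limma adjusted p = 0.915). The widest was Gstp1 at 0.75 ± 0.22 (SE; limma adjusted p = 0.145), followed by Gstm1 at 0.45 (limma adjusted p = 0.544) and Gstt1 at 0.33 (limma adjusted p = 0.275). Without the adipose-rich arrays the Gstp1 value was 0.45 (limma adjusted p = 0.424). Gstk1 differed between the organs by 0.26 ± 0.09 (SE; limma adjusted p = 0.295), so its rise in liver was not shown to be particular to that organ. For Gstt1 and Mgst1 all 4 livers at 500 mg/kg lay above the control mean and all 4 kidneys below it, and the test of that difference gave limma adjusted p of 0.275 and 0.592.

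**Figure D5:**
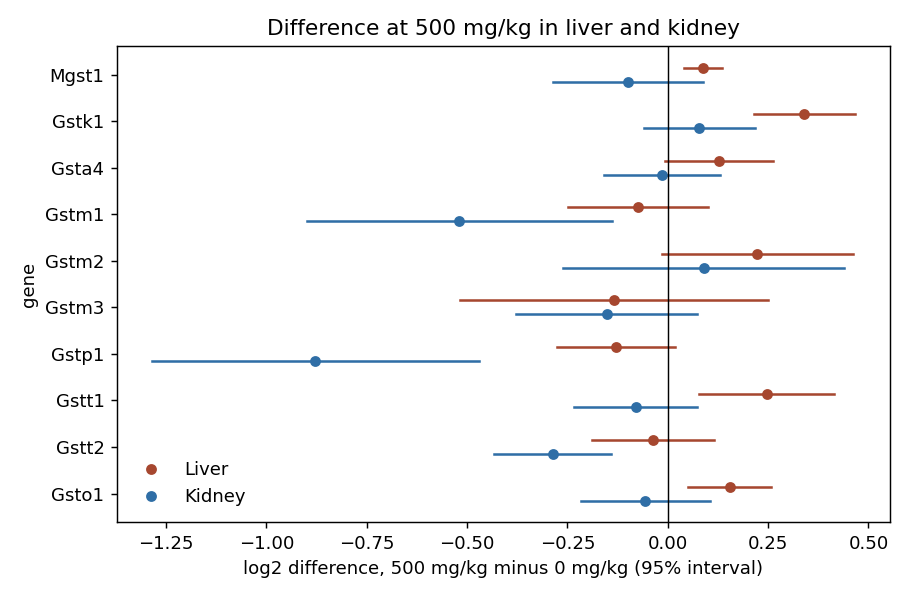
Log2 difference between 500 mg/kg and 0 mg/kg (horizontal axis) of each gene in liver and kidney, with points for the estimate and lines for its 95% interval, not adjusted for the number of genes. Gstp1 (-0.88) and Gstm1 (-0.52) in kidney are the lowest estimates and Gstk1 in liver (0.34) the highest.

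The spread between arrays of a group also differed by gene. For Mgst1 in liver it was 0.02, at values near the top of the scale, where differences may be compressed. In liver the SD within groups was 0.30 for Gstm3, the highest of the members, and in kidney Gstp1 (SD 0.32) and Gstm1 (SD 0.30) varied most. With group means removed, the 45 pairs of members had a median correlation over 29 arrays of 0.08 in liver and 0.06 in kidney, where all gene pairs had 0.01 and 0.03. The clustered mu genes Gstm1 and Gstm2 correlated at 0.23 in liver and 0.41 in kidney, and the clustered theta genes at -0.03 and 0.56. Without the adipose-rich arrays the kidney values were 0.43 for the mu pair and 0.42 for the theta pair. The 3 highest pairs over all arrays were in kidney, Gstp1 with Gstk1 at 0.60, Gstt1 with Gstk1 at 0.59 and Gstm2 with Gstk1 at 0.58, and the highest in liver was Gstt1 with Gsto1 at 0.57. Without the adipose-rich arrays these kidney pairs were at 0.50, 0.53 and 0.58 over 27 arrays. The pair Gstk1 and Mgst1 went from 0.27 to 0.73 and Gstt1 and Mgst1 from -0.072 to 0.70, and the kidney median from 0.06 to 0.11.

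The genes whose array-to-array pattern was most like each member were found over all tested genes of the organ, and a selection is given. For Gstk1 in liver they were Dcxr, a carbonyl reductase of pentose metabolism, at r = 0.87, and Cyp1a2, a xenobiotic-oxidising cytochrome P450, at 0.76. In kidney they were Upb1, of pyrimidine breakdown, at 0.90 and Tpmt, which methylates thiopurines, at 0.87. Besides Umod, the genes most like Gstp1 in kidney were Xxylt1 and Acss2, both at 0.91. Gstm2 in kidney was most like Isyna1 at 0.86 and Aqp2 at 0.84. Mgst1 in kidney was most like the lipid droplet gene Cidec at 0.81 and Acadm, of fatty acid oxidation, at 0.81, and these correlations were 0.61 and 0.58 without the adipose-rich arrays. Without them Xxylt1 and Acss2 were both at 0.87 with Gstp1, Isyna1 and Aqp2 both at 0.86 with Gstm2, and Upb1 and Tpmt at 0.89 and 0.85 with Gstk1. Values are over 29 arrays, or 27 without those 2, and describe shared variation of the same RNA samples.

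Other genes of the family gave 15 measured of 21 listed. None of the 15 was called at 300 or 500 mg/kg in either organ by limma. In liver Gsta3, an alpha class enzyme, rose in the dose trend by 0.18 ± 0.05 log2 units a step (SE; limma adjusted p = 0.0456). Its difference at 500 mg/kg was 0.97 ± 0.35 (SE; limma adjusted p = 0.185), with dosed arrays all above the controls. The microsomal relatives Mgst2 and Mgst3 were at 0.25 and 0.30 in liver at 500 mg/kg (limma adjusted p = 0.0804 and 0.0838). In kidney Gsta1 was at -0.34 with all dosed arrays below the controls (limma adjusted p = 0.0775), Gstz1 at 0.20 and Ptges at 0.33. Without the adipose-rich arrays they were at -0.30, 0.21 and 0.26. The median of the 15 at 500 mg/kg was 0.02 in liver and 0.03 in kidney.

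Genes that make and recycle glutathione gave 16 measured of 18, and 0 of them were called at 300 or 500 mg/kg in either organ. In liver Chac2, which degrades glutathione, fell in the dose trend by 0.05 log2 units a step (limma adjusted p = 0.0234) and was at -0.35 at 500 mg/kg (limma adjusted p = 0.0792). Cth, which makes cysteine, was at 0.15 and the peroxidase Gpx4 at 0.16 in liver. In kidney the subunits of the rate-limiting ligase, Gclc and Gclm, were at -0.43 and -0.36 and Ggct at -0.34 (limma adjusted p = 0.565 to 0.584), and at -0.15, -0.15 and -0.10 without the adipose-rich arrays. Of the mercapturate enzymes and conjugate exporters 16 of 19 were measured and 0 were called at 300 or 500 mg/kg or in a trend. The closest in liver was the exporter Abcc4 at 0.35 (limma adjusted p = 0.169), with Abcc2 at -0.21 and Dpep1 at 0.19. In kidney Kyat3, a cysteine conjugate lyase, was at 0.50, Abcg2 at -0.18 and Anpep at -0.29 (limma adjusted p = 0.385 to 0.450), and at 0.57, -0.10 and -0.17 without the adipose-rich arrays.

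Of the Nrf2 list 10 of 12 genes were measured, and 1 was called in liver at 500 mg/kg. Srxn1, sulfiredoxin, rose by 0.56 ± 0.14 (SE; limma adjusted p = 0.0455) and in the trend (limma adjusted p = 0.0454). Nqo1, the quinone reductase often used to read out Nrf2, was at 0.03 in liver and Nfe2l2, which encodes Nrf2, at 0.02. Akr7a3, an aflatoxin aldehyde reductase, was at 0.34 in liver and -0.37 in kidney (-0.16 without the adipose-rich arrays). Malic enzyme Me1 was called in the difference between organs at 0.91 ± 0.19 (SE; limma adjusted p = 0.0197), a call that was lost without the adipose-rich arrays (0.82, limma adjusted p = 0.0613). Within the organs Me1 was at 0.41 in liver and -0.47 in kidney, and neither passed. The brightest Me1 probe set differs between the organs, and the difference between organs uses the liver's, so these values do not subtract to 0.91. Of the receptor list, 8 of 9 genes were measured in liver and 6 of 9 in kidney. The PXR target Cyp3a23-3a1 was the list's call, rising in liver by 0.49 at 300 mg/kg (limma adjusted p = 0.0138) and 0.58 at 500 mg/kg (limma adjusted p = 0.00105). Cyp1a1, an AhR target, was at 0.38 and Rxra at 0.16 in liver, and neither passed.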

How the data were processed

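The values are the authors' deposited log2 values per probe set, made with RMA per the submitters' processing notes (version not given); a value shows no depth, so the number of arrays limits the precision. Labels name no batch. Per organ, probe sets above the array's own 40th percentile on at least 4 arrays were kept, control probes were dropped, and the brightest probe set stood for a gene. All 11 member probe sets were kept in both organs. Each organ was fitted over its 29 arrays with limma 3.58.1 in R 4.3.3 (lmFit, then eBayes with a trend), two-sided, with Benjamini-Hochberg adjustment over all genes of a comparison, and the organs were compared in a fit of 14 groups. The fit was tested on simulated data. The members and gene lists were chosen with earlier results of these data known. Named genes are all members and a selection from the 3 genes most like each by correlation over arrays. From the lists they are those called and the 3 with the smallest p at 500 mg/kg in each organ. Nqo1, Nfe2l2 and the genes of the receptor list were named after their values were seen. The TGANTCA motif, the exclusion of adipose-rich arrays and the Umod covariate were chosen after seeing the data. A planned comparison of protein sequences was not run, since no protein table was used here. Alternatives were no filter or a stricter one, all probe sets, eBayes robust or without its trend, the mean over probe sets, array weights, quantile normalization, a replicate block, only the groups compared, linear dose and leaving out each array.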

Additional observations from a re-analysis of the deposited data

Results flagged for a closer look

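In 9 of 154 groups of 4 or 5 arrays a single member value stood apart from the others of its group by Dixon's criterion, where chance gives about 1 in 20. Gstp1 read 11.91 on kidney replicate 2 at 0.1 mg/kg, the dose at which all its kidneys lay below the controls. Mgst1 read 12.20 on kidney replicate 3 at 300 mg/kg, an adipose-rich array, and the dimmer Gstt2 probe set (1396468_at) read 6.11 on the same array. The brighter Gstt2 probe set (1368409_at) read 9.66 on kidney control replicate 5 and 9.52 on kidney replicate 4 at 100 mg/kg, and the dimmer one read 5.91 on kidney replicate 4 at 10 mg/kg. In liver, Gstm2 read 10.99 on control replicate 4, Gstm1 read 12.35 on replicate 1 at 1 mg/kg, and Mgst1 read 13.85 on replicate 3 at 1 mg/kg.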

How the results depend on the processing

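The Gstk1 rise in liver at 500 mg/kg was called under 9 of 10 alternatives and without any single array (differences 0.26 to 0.38, limma adjusted p 0.00414 to 0.0212). The count of members called at that dose was 1, and became 2 with the stricter filter, the mean over probe sets, array weights or quantile normalization, which added Mgst1 (limma adjusted p = 0.0307, 0.0466, 0.0355 and 0.0497), and 0 with only the groups compared. In the liver trend it was 2 with quantile normalization and 4 with linear dose. In kidney at 500 mg/kg it was 1 with array weights (Gstp1 at -0.85, limma adjusted p = 0.0205) and 1 with the Umod covariate. In the kidney trend it was 3 with linear dose (Gstp1, Gstm1 and Gstt2) and 1 with the Umod covariate. Leaving out single arrays gave counts of 0 to 1 for kidney at 500 mg/kg and for the organ difference there, 1 to 1 for the liver at 500 mg/kg and its trend, 9 to 9 for the organ levels and 0 to 0 elsewhere. The cause was not tested.

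Over all genes, calls ran from 33 to 263 around 108 for liver at 500 mg/kg. For the liver trend they ran from 80 to 813 around 208. They ran from 0 to 69 around 3 for kidney at 500 mg/kg and from 0 to 185 around 17 for the kidney trend. For the organ difference at 500 mg/kg they ran from 4 to 84 around 13. The highest of these counts came with array weights at 500 mg/kg and with linear dose in the trends. Member calls added under these settings thus came with more calls over all genes.

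Within an organ, same-numbered arrays of different doses did not deviate together at the median (median r 0.0012 in liver and 0.0239 in kidney over 84 pairs). Single pairs ran from -0.25 to 0.21 in liver and from -0.34 to 0.64 in kidney, where both adipose-rich arrays are replicate 3. The same-numbered pairs lie within 1 organ, so they cannot show whether a liver and a kidney came from the same rat. Blocking livers and kidneys of the same dose and number in the organ difference gave a consensus correlation of 0.08. With the replicate block Gstk1 in liver at 500 mg/kg was at 0.33 (limma adjusted p = 0.0368) and Gstp1 in kidney at -0.83 (limma adjusted p = 0.131).

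Of 852 comparisons of 80 member values with an alternative, 827 kept direction and side, 14 newly passed, 1 no longer passed and 10 changed sign, all of them uncalled. The sign changes were Gstt2 in kidney at 300 mg/kg with the mean over probe sets (0.048), and with array weights Gstm2 in kidney at 300 mg/kg (-2.02e-05) and Mgst1 in the kidney trend (-0.00306). Without the adipose-rich arrays they were Gsta4 at 300 mg/kg (0.040), at 500 mg/kg (0.027) and in the trend (0.00388), Mgst1 at 300 mg/kg (-0.035) and in the trend (-0.0116), and Gstt1 in the trend (0.00395), all in kidney. With the Umod covariate Gsta4 in kidney at 500 mg/kg was at 0.032. Leaving out single arrays let these uncalled values cross 0: in kidney at 300 mg/kg Gsta4 (-0.10 to 0.040), Gstk1 (-0.035 to 0.078), Gstm2 (-0.054 to 0.15) and Mgst1 (-0.035 to 0.16), at 500 mg/kg Gsta4 (-0.039 to 0.027) and Gsto1 (-0.091 to 0.000584), and in the trend Mgst1 (-0.00968 to 0.00426). In liver they were at 300 mg/kg Gstm1 (-0.024 to 0.076), Gstm3 (-0.036 to 0.24), Gsto1 (-0.010 to 0.048), Gstp1 (-0.092 to 0.00758) and Gstt2 (-0.014 to 0.048), at 500 mg/kg Gstt2 (-0.069 to 0.010), and in the trend Gstm1 (-0.0101 to 0.000626) and Gstm3 (-0.026 to 0.00651). In the organ difference at 500 mg/kg Gstm3 ran from -0.17 to 0.12.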
